A study of Danio rerio with 16 samples.

Results

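The foggy mutation lies in supt5h, the zebrafish gene for Spt5, and the comparison described here sets 3 arrays titled Foggy36 against 3 titled WT36. They are the arrays of the 36 h stage whose titles carry the numbers 4, 5 and 6, and they make up 6 of the 16 samples of the series. The other 10 samples, 4 further arrays of the 36 h stage with numbers 1 to 3 and 6 arrays of injected embryos at the 12-somite stage, were not used. Each array read total RNA on a 1-colour Affymetrix zebrafish chip with 15502 probe sets besides its controls. The WT36 group held wild-type zebrafish embryos and the Foggy36 group embryos titled as foggy mutants, both at 36 h, and the material of both is described as embryonic brain. The labels give no allele, no strain, no number of embryos in a sample and no word on whether the numbered samples came from separate clutches. The p-values below thus rest on sample-to-sample spread alone, and that spread may be technical. The question the design poses is which transcripts differ when Spt5 is altered.

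Spt5 and Spt4 form DSIF, a complex that travels with RNA polymerase II. DSIF holds the polymerase paused shortly after the start of a gene and, once the kinase P-TEFb has acted on it, helps the polymerase to elongate. In zebrafish, foggy mutants are known for altered numbers of dopaminergic and serotonergic neurons in the brain and for defects of the heart and of pigment cells. On the arrays, supt5h measured 197, 231 and 166 units in WT36 4, 5 and 6 and 40.1, 47.0 and 38.6 in Foggy36 4, 5 and 6, a log2 difference of -1.88 ± 0.14 (SE, 3 against 3, limma adjusted p = 0.000144). The groups did not overlap.

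The label of brain was checked against marker genes. The forebrain factor dlx2a measured 225, 238 and 225 units in WT36, the midbrain factor otx2b 163, 150 and 131 and the neuronal RNA-binding protein gene elavl3 462, 466 and 428. The source field of the labels also names adrenal medulla. Of 10 genes listed for it and for catecholamine cells 6 were above the tag controls, probe sets that read no transcript, in all 6 arrays, among them the factors hand2, gata3 and ascl1a, which other tissues also express, and chga, with 40.3, 36.1 and 34.5 units in WT36. Ddc and slc6a3 were above them in no array. The enzyme genes of catecholamine synthesis th and dbh measured 1.05, 2.72 and 1.69 and 2.09, 19.8 and 4.66 units in WT36, against a highest unused tag control of 11.4 to 15.4 units, so only dbh in WT36 5 exceeded it. Genes of other tissues were read as well. The epidermal keratin krt4 measured 10790, 10590 and 10040 units in WT36 and 9976, 11120 and 11310 in Foggy36, and the yolk layer apolipoprotein apoa1a 11120, 11480 and 9955 and 11020, 12120 and 12480. The fast muscle light chain mylpfa measured 5680, 5354 and 8239 units in WT36. Levels of different probe sets cannot be set against each other, so these values give no share of each tissue.

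The 6 arrays were alike in scale, with medians from 47.6 to 53.1 units, and correlated across probe sets at 0.984 to 0.992 within groups and 0.957 to 0.974 between them. As a measure of RNA quality, the GAPDH control's 3' probe set exceeded its 5' probe set by 0.52 to 0.61 (log2) in WT36 and by 0.84, 0.53 and 0.52 in Foggy36. For the actin control the same difference was larger, at 2.46, 2.31 and 2.06 in WT36 and 2.55, 2.35 and 2.43 in Foggy36, lowest in WT36 6. All differences below are log2(value + 16) in Foggy36 minus WT36 with their SE, 3 against 3, and a probe set is called higher or lower at a limma adjusted p under 0.05, adjusted over all 15502.

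The mutant transcriptome held many modest differences and few large ones, and most of the large ones were falls. Of 15502 probe sets 1702 were called (11.0%), beside 4158 with an unadjusted p under 0.05. The calls were 624 higher (4.03%) and 1078 lower (6.95%). Among the calls 45 rises and 288 falls were at least 2-fold, and 52 falls but no rise at least 4-fold. The median size was 0.58 for rises and -0.74 for falls, and 326 of the rises and 277 of the falls were under 1.5-fold. The values of the groups did not overlap in 623 of the 624 rises and in the 1078 falls, and over all probe sets they did not overlap in 16.7% with the mutant higher and 15.6% with it lower. The split between rises and falls depended on scaling: with arrays centred on their medians 938 were called higher and 911 lower, so that 50.7% of calls were rises, against 36.7% with the values as deposited. The count was lower in each fit with 1 array left out. In these fits, here and below, the effect of having fewer arrays and that of the array left out cannot be told apart. Calls numbered 841 without WT36 4, 933 without WT36 5, 1073 without WT36 6, 842 without Foggy36 4, 859 without Foggy36 5 and 1186 without Foggy36 6, and 604 of the 1702 (35.5%) stayed called in the same direction in each of those fits. For 6916 probe sets (44.6%) the 95% interval of the difference lay within 0.5 of 0.

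**Figure D1:**
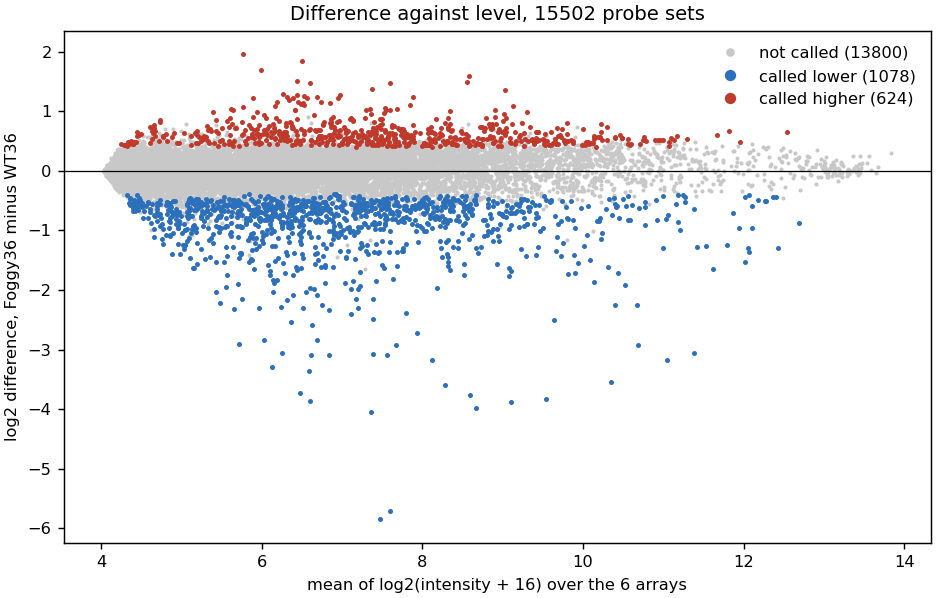
Each point is 1 of 15502 probe sets, with the mean of log2(intensity + 16) over the 6 arrays on the x axis and the log2 difference, Foggy36 minus WT36, on the y axis. Blue points are the 1078 called lower and red points the 624 called higher, and only falls exceed a log2 difference of 2 in size.

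Calls were rare among dim genes. When the probe sets were ranked by mean level and divided into 5 equal groups, 0.871% of the dimmest group were called higher and 1.29% lower, against 7.77% and 9.93% of the brightest. The pseudocount of 16 shrinks differences of dim genes. The median log2 difference was -0.01 in the dimmest group and 0.10 in the brightest.

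Genes near background were read against the 17 unused tag control probe sets, whose highest value was 14.7, 11.4 and 15.4 units in WT36 4, 5 and 6 and 15.7, 26.9 and 11.0 in Foggy36 4, 5 and 6. By that floor 9416 probe sets were above it in all 6 arrays and 2596 in none. Above it in all WT36 and in no Foggy36 array were 132 probe sets, and 86 of them were called lower, beside 6.95% of all probe sets. Their selection largely sets that direction, so these calls are no separate result. Above it in all Foggy36 and in no WT36 array was 1 probe set, which carries no gene symbol. That asymmetry moved with the floor itself: with 1 common floor of 26.9 units, an alternative chosen after seeing the data, 135 were above it in WT36 alone and 54 in Foggy36 alone. Without Foggy36 6, 439 were above the floor in wild type alone and 1 in mutant alone, and without WT36 4, 203 and 4. Without Foggy36 5, which has the highest tag control, they were 134 and 48. The part of the tag controls in single genes was not tested. In RNA of mixed tissue, fewer cells of a type and less RNA per cell cannot be told apart, here and in all results below.

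Among the genes above the floor in wild type alone, those with the largest falls included genes of pigment cells, the eye and the ear. Their folds are lower bounds, set by the highest tag control. The brightest was gch2, a GTP cyclohydrolase of pterin pigment synthesis, with 1172, 1057 and 1884 units in WT36 and 13.6, 6.46 and 2.97 in Foggy36, at least 79.4-fold lower. A dimmer probe set of gch2 fell in the same way, at least 4.53-fold. The sugar transporter family gene slc2a11b measured 64.6, 76.7 and 122 and 8.87, 16.5 and 8.29 units, at least 5.07-fold lower. The keratan sulfate proteoglycan gene kera, known from the cornea, measured 68.1, 63.0 and 196 units in WT36 and 3.93, 8.89 and 7.02 in Foggy36, at least 5.65-fold lower, and WT36 6 was the brightest array. The otolith matrix protein gene otomp measured 66.5, 83.6 and 91.9 and 5.40, 1.89 and 6.81 units, at least 4.78-fold lower. The melanocyte factor mitfa measured 64.2, 62.9 and 61.4 and 7.68, 16.01 and 10.5, at least 3.76-fold lower. Further down came fgfbp1a, an Fgf-binding protein gene, at least 3.67-fold lower, aebp1b at least 3.01-fold, the macrophage growth factor csf1b at least 2.80-fold, the neuronal factor neurod6b at least 2.79-fold and the lens crystallin crygmxl2 at least 2.62-fold. Over all 132 probe sets the median bound was 1.34-fold and 28 reached 2-fold, so for most of them only a small bound can be given.

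**Figure D2:**
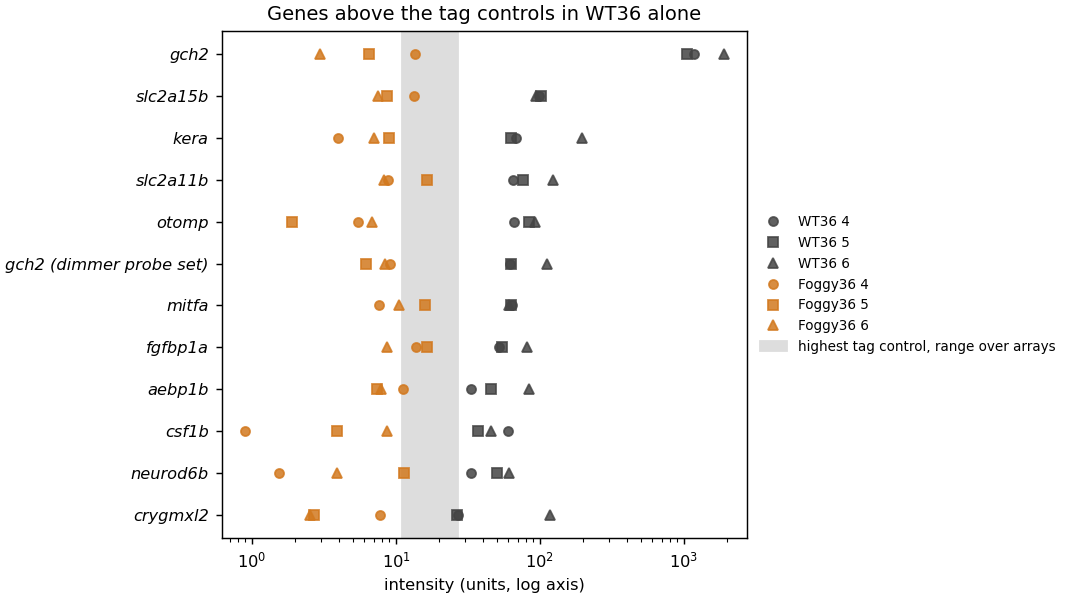
Intensity on a log axis of the 12 called probe sets with the largest lower bounds among those above the tag controls in WT36 alone, with 1 mark per array (WT36 grey, Foggy36 orange). The shaded band runs from 11.0 to 26.9 units, the range of the highest tag control over the 6 arrays, and every Foggy36 mark lies in or left of it while the WT36 marks reach from 26.4 units to 1884.

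To look past single genes, 8793 genes were read by their brightest probe set, and 3693 of them fell into at least 1 of 87 lists of pathways, complexes and cell types. Over all those genes 4.97% were called higher and 7.72% lower, with a median difference of 0.03, and the counts below stand against these shares. The 1116 called genes included 626 members of the lists.

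**Figure D3:**
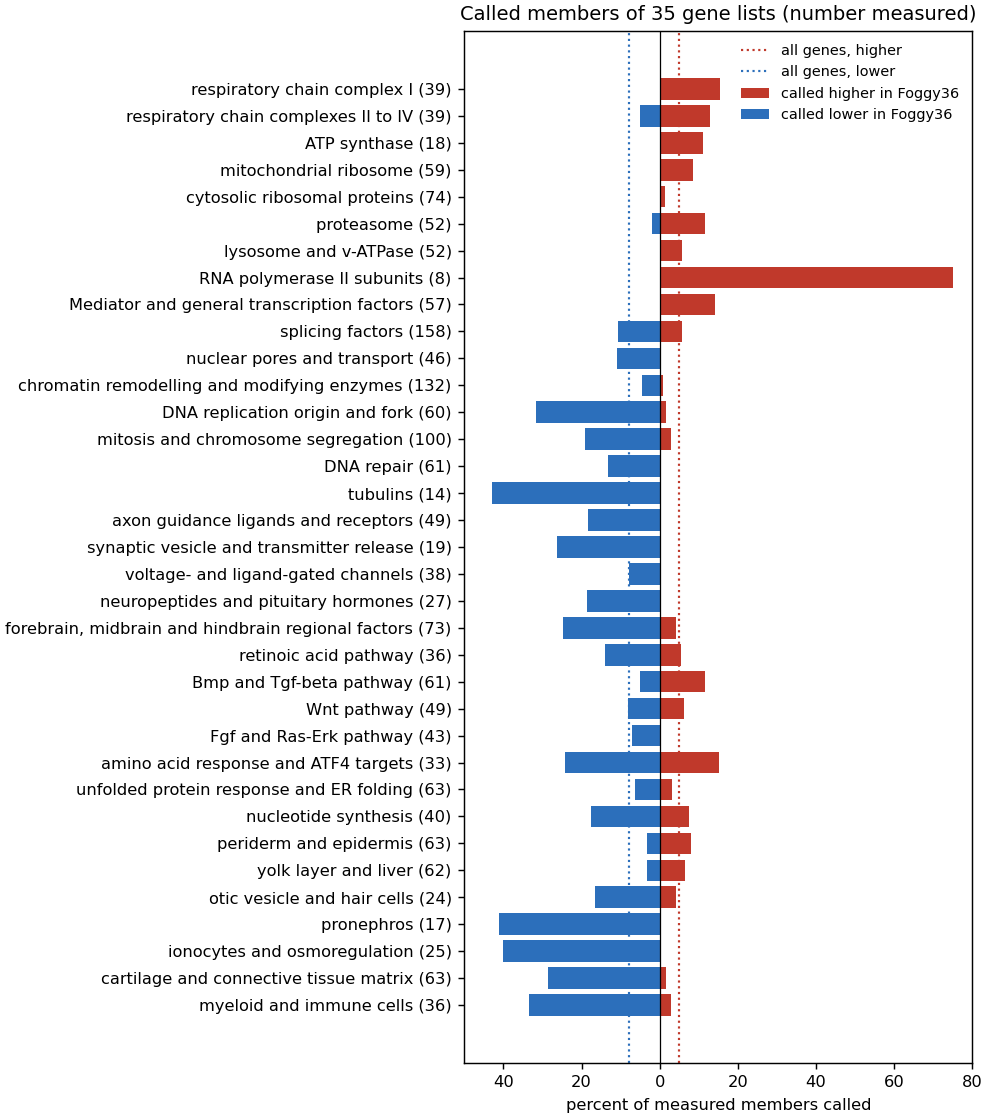
Percent of the measured members of 35 gene lists called lower (blue, to the left) and higher (red, to the right) in Foggy36, with the number measured in brackets. Dotted lines mark the shares over all 8793 genes, 7.72% lower and 4.97% higher. The RNA polymerase II list stands at 6 of 8 higher. Of the pronephros genes 7 of 17 are lower, of the ionocyte genes 10 of 25 and of the tubulin genes 6 of 14. The 35 lists are a selection from 87. The share of the RNA polymerase II list called higher is the largest of the 87. The shares of the pronephros, ionocyte and tubulin lists called lower are not the extremes of the 87. Larger shares were lower for pigment cells (9 of 17), skeletal muscle (34 of 66) and neurons (14 of 28). In the Hox cluster list 13 of 42 were higher and none lower.

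In the basal transcription machinery some genes rose and none fell. Of 57 genes of Mediator, the complex that links activators to polymerase, and of the general transcription factors, 8 were called higher and none lower (median 0.21). The Mediator subunit med7 measured 167, 130 and 145 units in WT36 and 237, 229 and 288 in Foggy36 (0.71 ± 0.14), and med10 rose by 0.52 ± 0.13. The initiation factor gtf2b, which places the polymerase at the promoter, went from 278, 286 and 321 to 434, 424 and 413 units (0.50 ± 0.11). The TFIID subunits taf11 and taf12 (0.52 ± 0.12 and 0.47 ± 0.11), gtf2a1 (0.53 ± 0.14) and the TFIIH kinase cdk7 (0.50 ± 0.13) rose as well. The eighth, taf1a (0.67 ± 0.13), belongs to a factor of RNA polymerase I and was the only 1 of the 8 that stayed called whichever array was left out. Of the 8 measured subunits of RNA polymerase II itself 6 were higher and none lower (median 0.63), and its largest subunit polr2a went from 375, 355 and 243 to 732, 788 and 505 units. Of those 6 calls 2 stayed in every fit with an array left out, and with pseudocount 1 there was 1. Among 46 genes of mRNA 3' end processing, the Integrator complex and export none rose and 2 fell, ddx39ab and thoc2 (-0.49 ± 0.13 and -0.43 ± 0.11), a share below that of all genes, and neither call stayed in every such fit.

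Among mitochondrial and proteasome genes more rose than fell, by small amounts. Of 39 genes of respiratory complex I, which passes electrons from NADH, 6 were called higher and none lower, and 34 of the 39 differences were above 0 (median 0.28). The subunit gene ndufa13 measured 628, 704 and 626 units in WT36 and 972, 957 and 926 in Foggy36 (0.53 ± 0.11). Complexes II to IV had 5 called higher and 2 lower of 39 (median 0.28). The 2 falls there were cox6b1, with 142, 120 and 195 and 30.8, 32.5 and 98.7 units (-1.38 ± 0.32), and cox4i1l, above the tag controls in wild type alone, with 19.3, 15.9 and 19.8 and 2.25, 10.6 and 2.27 units. Of the 18 ATP synthase genes 2 were higher and none lower (median 0.29), and of 59 mitochondrial ribosomal proteins 5 were higher and none lower, led by mrpl36 (0.72 ± 0.13). Proteasome genes, which encode the main protease of the cell, were higher in 6 of 52 and lower in 1 (median 0.24), with psmb2 at 1197, 1207 and 1093 and 1706, 1839 and 1599 units (0.55 ± 0.12). These are small changes: apart from mrpl36, none of the called genes of these 5 lists stayed called in every fit with an array left out. With median-centred arrays the medians of the complex I and proteasome lists were 0.34 and 0.30, and with pseudocount 1 no member of either was called.

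Cytosolic ribosomal proteins, by contrast, were close to equal. Of 74 measured genes 1 was called, rps27l, a relative of rps27 that p53 is known to induce, with 348, 358 and 395 units in WT36 and 664, 671 and 1128 in Foggy36 (1.08 ± 0.20). The 95% interval of the difference lay within 0.5 of 0 for 69 of the 74, and the median was 0.03, or -0.01 with quantile normalization. In the list of ribosome assembly and of RNA polymerases I and III, 6 of 91 were higher and 4 lower (median 0.20). These shares, 6.59% and 4.40%, stand against 4.97% and 7.72% of all genes. The rises included npm3 (0.74 ± 0.14) and utp6 (0.64 ± 0.12). The falls included dkc1 (-0.59 ± 0.12) and nop58 (-0.49 ± 0.11), both of the modification of ribosomal RNA.

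**Figure D4:**
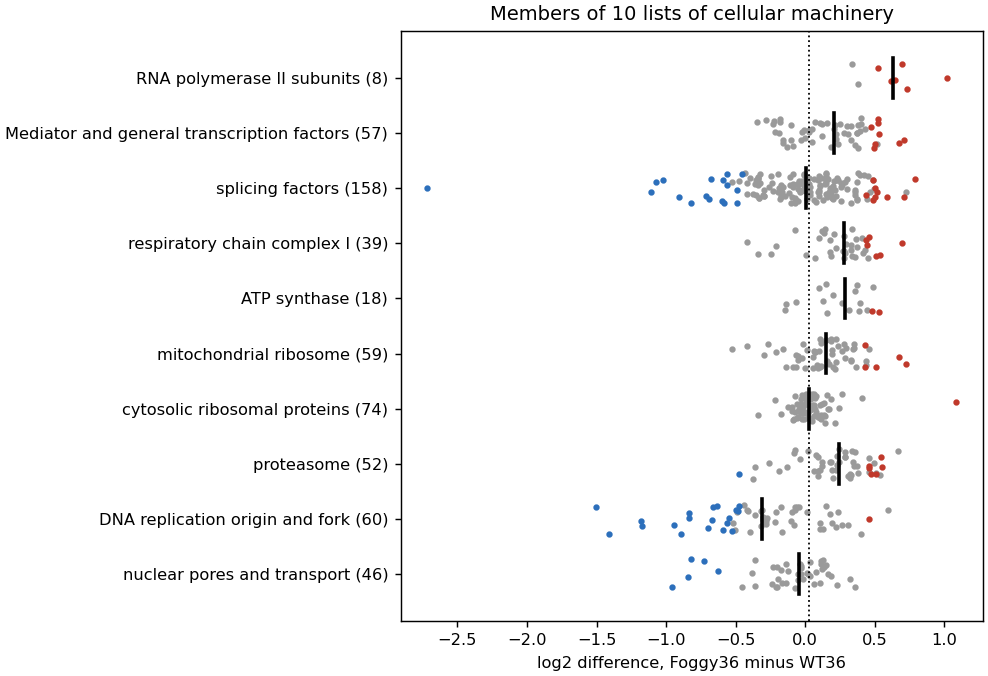
Log2 difference, Foggy36 minus WT36, of each measured member of 10 lists (points; red called higher, blue called lower, grey not called), with the list median as a black bar and the median of all 8793 genes, 0.03, as a dotted line. The RNA polymerase II median stands at 0.63, the ribosomal proteins gather at 0.03 with rps27l alone at 1.08, and the replication list spreads down to -1.50.

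Splicing genes went both ways. Of 158 splicing genes 9 were called higher and 17 lower (median 0.01). These shares, 5.70% and 10.8%, stand against 4.97% and 7.72% of all genes. Many of the falls were regulators that bind pre-mRNA, though the spliceosome protein gene prpf38b fell too (-0.49 ± 0.12). Hnrnpa0a, a nuclear ribonucleoprotein gene, measured 1629, 1606 and 1358 units in WT36 and 675, 720 and 756 in Foggy36 (-1.07 ± 0.12), and hnrnpdl fell (-1.11 ± 0.13). The stability factor elavl1a went from 794, 669 and 751 to 370, 381 and 406 units (-0.91 ± 0.12). Hnrnpa1b (-0.82 ± 0.12), ptbp2b (-1.02 ± 0.15), celf2 (-0.69 ± 0.12) and srsf6b (-0.68 ± 0.13) fell too. The largest fall was that of rbfox1l, a splicing regulator of muscle, from 596, 611 and 626 to 72.1, 73.5 and 93.7 units (-2.72 ± 0.13, adjusted p = 6.2e-06). All 9 rises were genes of the spliceosome and its small nuclear ribonucleoproteins, among them the Sm ring proteins snrpd3, with 424, 422 and 372 and 694, 722 and 721 units (0.79 ± 0.11, adjusted p = 0.00333), and snrpe (0.51 ± 0.11), and the U2 proteins sf3a2 (0.71 ± 0.17) and sf3b6 (0.50 ± 0.12). This grouping was made after the values were seen and was not tested. Of the 26 calls 9 stayed in every fit with an array left out, snrpd3 alone among the rises.

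Some genes of import into the nucleus fell. Of 46 genes of nuclear pores and transport 5 were called lower and none higher, 10.9% against 7.72% of all genes, with a median of -0.05 (0.01 with centred arrays). Of the 5 calls 3 stayed whichever array was left out. The import receptor gene ipo7 measured 1177, 1220 and 983 units in WT36 and 625, 636 and 592 in Foggy36 (-0.84 ± 0.12), and kpnb3 (-0.82 ± 0.18), the importin alpha gene kpna2 (-0.63 ± 0.14) and the pore protein gene nup58 (-0.73 ± 0.13) fell too. The fifth, ranbp3b, was above the tag controls in wild type alone, at 27.8, 30.7 and 23.3 and 6.59, 5.12 and 7.06 units.

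Many genes of DNA synthesis fell. Of 60 replication genes 19 were called lower and 1 higher, tipin (0.46 ± 0.13), with a median of -0.31. The 6 MCM subunits mcm2 to mcm7, which form the replicative helicase, were all lower, with mcm2 at 2002, 1818 and 1647 units in WT36 and 621, 684 and 592 in Foggy36 (-1.50 ± 0.12, adjusted p = 0.000238) and mcm7 at 965, 1016 and 607 and 470, 489 and 387 (-0.89 ± 0.20). The single-strand binding protein gene rpa1 measured 1549, 1548 and 1497 units in WT36 and 759, 925 and 872 in Foggy36 (-0.84 ± 0.12), and the origin subunits orc4 and orc5 fell (-0.66 ± 0.13 and -0.70 ± 0.13). Around replication, genes that copy DNA methylation fell: dnmt1, the maintenance methyltransferase, went from 660, 573 and 564 to 315, 326 and 293 units (-0.91 ± 0.12), and its partner uhrf1 from 678, 664 and 663 to 369, 331 and 303 (-0.97 ± 0.12). Within the list of 132 chromatin enzymes the share called lower, 6 genes, was below that of all genes, and 1 rose, the Polycomb gene bmi1a (0.71 ± 0.12). DNA repair genes were lower in 8 of 61 and higher in none, with the mismatch factor msh6 at -0.91 ± 0.18. Of 100 genes of mitosis 19 were lower, such as cdca7a, with 1281, 1277 and 1286 and 468, 466 and 548 units (-1.35 ± 0.12), the cyclin ccna2 (-0.76 ± 0.11) and the cohesin acetylase esco2 (-0.73 ± 0.12), and 3 higher, such as anapc13 (0.86 ± 0.13). In the G1 and E2F list 10 of 34 were lower and none higher, among them mybl2b (-0.87 ± 0.12), e2f3 (-0.48 ± 0.11) and rb1 (-0.53 ± 0.14). Whichever array was left out, 10 of the 20 replication calls and 7 of the 22 mitosis calls stayed, but 2 of the 10 calls of the G1 and E2F list and 1 of the 8 of DNA repair.

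Genes of nucleotide supply went both ways. Of 40 genes of nucleotide synthesis 3 were called higher and 7 lower. The 3 rises were all enzymes of pyrimidine synthesis: cad, with 1559, 1565 and 1215 units in WT36 and 2218, 2090 and 1895 in Foggy36 (0.52 ± 0.14), dhodh, with 168, 174 and 146 and 225, 262 and 258 (0.57 ± 0.12), and ctps1a (0.45 ± 0.11). Among the falls were rrm1, a subunit of the enzyme that makes deoxyribonucleotides, with 1693, 1644 and 1944 and 848, 804 and 716 units (-1.14 ± 0.13, adjusted p = 0.000897), the salvage kinases tk1 (-0.86 ± 0.18) and uck2b (-0.70 ± 0.14), and the diphosphate kinase nme2b.1 (-0.80 ± 0.11). None of the 3 rises stayed called in every fit with an array left out, and of the falls rrm1, impdh1b and nme2b.1 did.

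In the amino acid response the regulator genes fell and the targets went both ways. Atf4a, a transcription factor that raises amino acid synthesis genes when amino acids run short, measured 916, 919 and 854 units in WT36 and 508, 524 and 517 in Foggy36 (-0.78 ± 0.11, adjusted p = 0.00295), and its paralog atf4b fell (-0.86 ± 0.15). Of the 33 genes of that list 8 were lower and 5 higher. The lower ones held the proline synthesis gene aldh18a1, with 190, 231 and 224 and 82.4, 65.0 and 106 units (-1.22 ± 0.16), the serine synthesis genes phgdh (-0.70 ± 0.15) and psat1 (-0.63 ± 0.12), and chac1 (-0.75 ± 0.18). The higher ones held eif4ebp1 and eif4ebp3l, repressors of cap-dependent translation (0.40 ± 0.11 and 0.46 ± 0.11), jdp2b (0.91 ± 0.22) and cebpb, with 195, 209 and 207 and 323, 355 and 308 units (0.65 ± 0.11). In the translation factor list 3 genes of 88 rose (3.41%) and 8 fell (9.09%), against 4.97% and 7.72% of all genes. The eIF4E kinase gene mknk2b rose by 0.76 ± 0.12, and pabpc4 was among the falls (-0.79 ± 0.17). Of 24 aminoacyl-tRNA synthetases aars1 alone was called (-0.62 ± 0.12). In the list of the unfolded protein response and folding in the endoplasmic reticulum calls were no more frequent than over all genes, and the median was 0.11: 4 of 63 fell, hsp90b1 (-1.04 ± 0.17), hspa5 (-0.49 ± 0.13), dnajb11 and calr3b, while 2 genes of the signal peptidase, spcs1 and spcs3 (0.65 ± 0.13), rose. Whichever array was left out, 1 of those 6 calls, 1 of the 11 of translation factors and 4 of the 13 of the amino acid list stayed.

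Within the nervous system, 14 of 28 genes of the neuron list were called lower and none higher (median -0.68). Of those 14 calls 7 stayed whichever array was left out. Transcription factors that mark regions of the brain also fell more often than they rose. Of 73 such genes 18 were called lower and 3 higher (median -0.25). The progenitor factor dbx1a measured 250, 259 and 319 units in WT36 and 150, 140 and 170 in Foggy36 (-0.78 ± 0.13, adjusted p = 0.00842). The telencephalic neuron factor tbr1b went from 72.7, 61.6 and 73.9 to 23.3, 23.6 and 29.1 units (-1.05 ± 0.12), with 2 Foggy36 arrays above their tag controls. Lhx5, a LIM factor of the forebrain (-0.79 ± 0.13), the hindbrain factor meis3 (-0.91 ± 0.15), pax6a (-0.64 ± 0.12) and the retinal homeobox genes rx1 (-0.71 ± 0.13) and rx2 (-0.92 ± 0.18) fell as well. The rises were the anterior genes six3a, with 96.7, 118 and 103 and 160, 172 and 133 units (0.49 ± 0.13), and six6a (0.48 ± 0.12), and egr2b, a hindbrain gene that is also an immediate early gene, with 24.4, 24.2 and 25.8 and 65.8, 75.4 and 33.3 units (0.81 ± 0.21). Other regional factors were close to equal, such as en2a of the midbrain-hindbrain boundary, with 63.6, 69.3 and 64.2 and 63.5, 64.2 and 57.8 units and a 95% interval from -0.32 to 0.18. Of the 21 calls 6 stayed in every fit with an array left out.

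In the lists of axon guidance and of synaptic vesicles some genes fell and none rose. Of 49 guidance genes 9 were called lower and none higher (median -0.19). The Eph receptor gene epha4b measured 94.9, 98.1 and 99.7 units in WT36 and 50.4, 58.6 and 37.9 in Foggy36 (-0.82 ± 0.14), and its relatives epha4a (-0.76 ± 0.17) and ephb2b (-0.72 ± 0.13) fell too. So did the chemokine cxcl12b (-0.64 ± 0.12) with its receptor cxcr4b (-0.57 ± 0.11) and the midline attractant ntn1a (-0.50 ± 0.11). In the synaptic list 5 of 19 were lower, among them slc18a3a, the vesicular acetylcholine transporter, with 70.9, 66.2 and 120 and 30.6, 30.2 and 35.95 units (-1.04 ± 0.19, adjusted p = 0.0102), and the vesicle protein sypa (-0.67 ± 0.16). That list's summed level was higher in number 6 than in the mean of numbers 4 and 5, 1.39 times in WT36 and 1.22 times in Foggy36, and slc18a3a alone of its calls stayed whichever array was left out. Of 38 channel genes 3 were lower, a share (7.89%) near that of all genes, and cacng1a and chrne among them are known from skeletal muscle. Of 14 tubulin genes 6 were lower, such as tubb2, with 221, 246 and 250 and 109, 104 and 128 units (-0.98 ± 0.12). Among genes of secreted peptides adcyap1b, the gene of PACAP, fell from 141, 156 and 178 to 67.1, 53.8 and 79.3 units (-1.08 ± 0.15). So did the somatostatin genes sst2 (-1.53 ± 0.22) and sst1.1, at least 1.51-fold lower, which was above the tag controls in wild type alone. Both somatostatin genes are also members of the list of pancreas and gut, in which 7 of 42 were lower and 2 higher. Of 27 peptide hormone genes 5 were lower and none higher, all but adcyap1b dim, and 10 were above the tag controls in no array. Of 21 cadherin and protocadherin genes 5 fell and 1 rose, pcdh1b (0.63 ± 0.11). Pcdh1b was near background, with 5.34, 4.33 and 2.93 units in WT36 and 14.5, 16.7 and 14.8 in Foggy36. It exceeded the highest tag control in Foggy36 6 alone. The adhesion molecule cdh11 fell from 210, 212 and 175 to 72.4, 62.8 and 69.2 units (-1.35 ± 0.12).

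**Figure D5:**
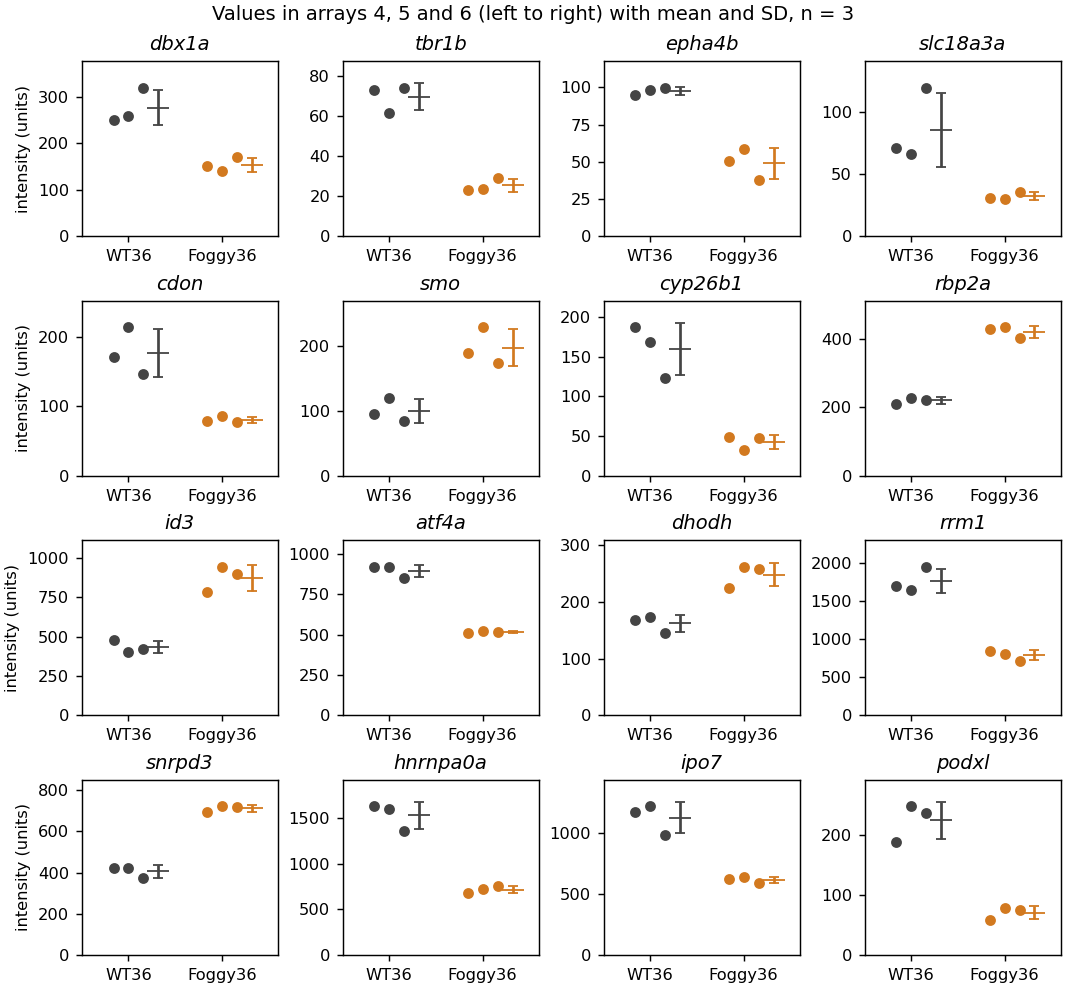
Intensity in units on linear axes from 0 for 16 genes named in the text, with 1 point per array in the order 4, 5, 6 (WT36 grey, Foggy36 orange) and the mean and SD of each group (n = 3) beside the points. The 16 are all called genes, and groups of called genes seldom overlap. In each panel the groups do not overlap, with smo, rbp2a, id3, dhodh and snrpd3 higher in Foggy36 and the other 11 lower.

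Few genes of most signalling lists were called. The list of the Notch pathway and proneural factors had more, with 20 of 52 lower (38.5%) and none higher. Of these 20 calls 14 stayed in every fit with an array left out. In the Hedgehog pathway, which patterns the ventral nervous system and the somites, 3 of 20 genes were called. The shares, 5% higher and 10% lower, were near those of all genes, 4.97% and 7.72%. All 3 are receptor components at the cell surface. The co-receptor genes cdon and boc fell, cdon from 171, 214 and 146 to 79.5, 85.9 and 77.7 units (-0.98 ± 0.14) and boc from 174, 187 and 153 to 103, 76.8 and 63.8 (-0.96 ± 0.16). Smo, which carries the signal across the membrane, rose from 94.5, 120 and 84.5 to 189, 228 and 173 units (0.88 ± 0.15, adjusted p = 0.00878). All 3 stayed called whichever array was left out. The target gene gli1 measured 7.56, 23.3 and 20.2 and 16.1, 14.5 and 10.9 units (-0.12 ± 0.19, adjusted p = 0.753). Gli1 was near background and did not exceed the highest tag control in WT36 4, Foggy36 5 and Foggy36 6. These values thus cannot show whether the target was equal in the 2 groups.

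In the retinoic acid pathway 2 of 36 genes were higher and 5 lower. Some enzymes that degrade or make retinoic acid fell. Cyp26b1, which degrades it, went from 187, 169 and 123 to 48.5, 33.1 and 47.7 units (-1.56 ± 0.17, adjusted p = 0.00093), and its relative cyp26c1 fell (-0.68 ± 0.14). Aldh1a2, which makes retinoic acid, went from 245, 243 and 166 to 132, 121 and 109 units (-0.76 ± 0.16). The 2 rises were the retinol dehydrogenase rdh10b, from 72.5, 65.8 and 59.95 to 145, 126 and 119 units (0.83 ± 0.12), and the cellular retinol-binding protein rbp2a from 209, 228 and 222 to 427, 432 and 400 (0.89 ± 0.11). The nuclear receptor gene nr2f1a fell (-0.82 ± 0.15). Aldh1a2 and cyp26c1 lost their calls in some fits with an array left out, and the other 4 named here stayed called in each.

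In the Bmp and Tgf-beta list 7 of 61 genes were higher and 3 lower. Id3, which encodes an inhibitor of bHLH factors and is a known Bmp target, measured 475, 399 and 424 units in WT36 and 781, 942 and 896 in Foggy36 (0.99 ± 0.13, adjusted p = 0.00192). Id2a (0.66 ± 0.13) and msx1b (0.58 ± 0.11), likewise known targets, rose with the ligand genes bmp2b (0.52 ± 0.13) and inhbb (0.77 ± 0.18) and with the antagonists fsta (0.69 ± 0.16) and chrd, which stayed near background. The ligand gene bmp5 fell from 195, 192 and 191 to 84.4, 92.7 and 99.3 units (-0.95 ± 0.11), as did msx3 (-0.81 ± 0.15). Bmp5, msx3 and id3 stayed called in every fit with an array left out. The Wnt list had 3 of 49 higher, such as the receptor fzd2 (0.58 ± 0.11), and 4 lower, such as the feedback gene axin2, with 376, 407 and 322 and 244, 241 and 232 units (-0.59 ± 0.12). The Fgf list had 3 of 43 lower and none higher, and its feedback genes spry4 and dusp6 differed by 0.02 ± 0.15 and 0.15 ± 0.11 (adjusted p = 0.953 and 0.451). The shares of calls in the Wnt and Fgf lists were near or below those of all genes. In the list of steroid genes 3 of 31 rose, cyp11a1.1, the first enzyme of steroid synthesis, with 57.2, 77.4 and 38.0 and 174, 157 and 107 units (1.15 ± 0.22), hsd3b2 (0.81 ± 0.20) and cebpb.

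Among organs other than the brain, kidney, ear and ion-transporting skin cells had falls, and they were not the only ones. Of 66 skeletal muscle genes 34 were lower and 2 higher, and of 38 red blood cell genes 15 were lower and 1 higher. In the lens list 5 of 15 were lower and none higher, and in the heart list 5 of 21 were lower and 2 higher. Of 17 genes of the pronephros, the embryonic kidney, 7 were called lower and none higher. Their median difference was -0.33, and 11 of the 17 differences were below 0. The summed level of the 17, in which bright probe sets weigh most, was not lower, at a mean of 4453 units in WT36 and 4763 in Foggy36. Podxl, which coats the filtering cells, measured 189, 248 and 236 units in WT36 and 57.7, 79.1 and 75.1 in Foggy36 (-1.47 ± 0.15, adjusted p = 0.000585). The salt transporter slc12a3 (32.2, 32.4 and 40.3 against 6.14, 5.58 and 4.80 units) and the chloride channel clcnk (18.9, 19.2 and 29.7 against 2.06, 7.43 and 1.62) were above the tag controls in wild type alone. Slc12a3 and other genes are shared with the ionocyte list, in which 10 of 25 were lower and none higher, among them the carbonic anhydrase ca2, with 562, 559 and 839 and 274, 286 and 369 units (-1.02 ± 0.18), and the sodium pump atp1a1a.4 (-1.36 ± 0.15). The urea transporter slc14a2 was also above the tag controls in wild type alone (26.6, 32.9 and 48.9 against 1.34, 3.16 and 6.59 units). Of 24 genes of the ear 4 fell and 1 rose, the falls being otomp, the parvalbumin gene pvalb8, with 211, 199 and 332 and 22.9, 30.1 and 59.0 units (-2.33 ± 0.26), the hair cell factor atoh1a (-0.77 ± 0.16) and eya1 (-0.66 ± 0.14). The median difference of the 24 was -0.13, and 17 of the 24 differences were below 0. Their summed level, in which bright probe sets weigh most, was not lower, at a mean of 6760 units in WT36 and 6940 in Foggy36. In the retina list 4 of 41 fell (9.76%) and 3 rose (7.32%), against 7.72% and 4.97% of all genes. The rises included opn1sw2, with 28.4, 33.1 and 35.1 and 52.7, 57.0 and 79.6 units (0.70 ± 0.15), and rbp4l (0.58 ± 0.14). Of the 41 genes 19 were above the tag controls in no array. The visual cycle genes rlbp1a (42.2, 29.2 and 27.4 against 11.2, 7.84 and 9.96 units) and rpe65a (19.1, 23.1 and 18.9 against 9.86, 3.12 and 9.05) fell and were above them in wild type alone. Whichever array was left out, 4 of the 7 pronephros calls and 9 of the 10 ionocyte calls stayed, but 2 of the 5 of the ear and 2 of the 7 of the retina.

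Few genes of skin and yolk layer fell. Of 63 epidermal genes 5 were called higher and 2 lower (median 0.13). The largest difference was a fall, that of aqp3a, from 413, 397 and 915 to 24.3, 33.6 and 120 units (-3.08 ± 0.45). The keratins krt8, with 4639, 4740 and 4752 units in WT36 and 6899, 7712 and 7718 in Foggy36 (0.66 ± 0.11, adjusted p = 0.00793), krt18a.1 (0.54 ± 0.11) and krt99 (1.02 ± 0.26) rose, while tp63, the factor of basal skin cells, fell from 206, 226 and 237 to 111, 113 and 118 units (-0.87 ± 0.11). Of 62 genes of the yolk layer and liver 4 rose and 2 fell, the rises being rbp2a, mttp (0.58 ± 0.14), fetub (0.68 ± 0.17) and vtg2, which stayed below the tag controls, and the falls fabp3, from 4785, 4590 and 4358 to 2040, 1836 and 1808 units (-1.27 ± 0.11), and the dim hpda. Of 63 genes of cartilage and connective tissue matrix 18 fell and 1 rose (median -0.31). The proteoglycan dcn went from 347, 324 and 397 to 72.3, 75.1 and 130 units (-1.81 ± 0.19, adjusted p = 0.000826), the fibril collagen col1a1a from 1363, 1311 and 1998 to 506, 494 and 711 (-1.42 ± 0.20) and postnb from 1359, 1398 and 2084 to 593, 549 and 860 (-1.25 ± 0.21), while the laminin lamb1a rose by 0.51 ± 0.12. Of these 19 calls 14 stayed whichever array was left out. Myeloid and immune genes fell in 12 of 36 and rose in 1, cebpb, with the actin-bundling lcp1 at 74.7, 75.6 and 66.0 and 31.4, 28.5 and 14.96 units (-1.13 ± 0.17) and ikzf1 and laptm5 above the tag controls in wild type alone. The summed level of the 36, in which bright probe sets weigh most, was close to equal, at a mean of 4505 units in WT36 and 4510 in Foggy36. Their median difference was -0.33, and 27 of the 36 differences were below 0. In the endothelium list 9 of 26 fell and none rose. The water channel aqp1a.1, also a member of the ionocyte list, measured 258, 271 and 426 and 48.9, 38.0 and 67.3 units (-2.30 ± 0.22). Kdrl (-1.01 ± 0.12) and fli1 (-1.165 ± 0.16) fell by less. The receptor tie1, above the tag controls in wild type alone, measured 37.0, 33.2 and 31.9 and 9.04, 9.32 and 6.32 units.

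Arrays of number 6 differed from numbers 4 and 5 in some of these lists. The summed level of 66 skeletal muscle genes was 83660, 86120 and 116100 units in WT36 4, 5 and 6 and 41060, 40280 and 50370 in Foggy36, so number 6 stood at 1.37 times the mean of the other 2 in WT36 and 1.24 times in Foggy36. The calcium buffer pvalb1 measured 864, 954 and 3372 and 54.2, 47.3 and 244 units. For matrix genes the same ratio was 1.34 and 1.15, for ionocyte genes 1.31 and 1.17, and for the 15 lens genes 1.88 in WT36 and 0.825 in Foggy36. The groups of pvalb1 did not overlap, but the rule that picked this gene required that. The SE of pvalb1 was 0.61 where that of supt5h was 0.14, and the part of this spread in other results was not tested.

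Some genes were close to equal between the groups. The 10 genes with the narrowest intervals around 0 among the brighter probe sets were dbr1, nol9, znf503, hemk2, abcf2a, slc20a1b, ccdc93, dmap1, epas1a and mrpl23. The brain factor znf503 measured 296, 299 and 284 units in WT36 and 292, 296 and 295 in Foggy36, and the ABC protein gene abcf2a 676, 670 and 681 and 685, 689 and 668, with intervals from -0.23 to 0.25 and from -0.23 to 0.25. Different probe sets of a gene did not always share a call. A probe set without a call can still have a similar difference, and sizes were not compared between probe sets. Over all genes, of 1539 with several probe sets 286 had at least 1 called, of which 70 had all called in 1 direction, 215 had some not called and 1 had calls both ways.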

How the data were processed

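The intensity values are those the authors deposited as the series' value table, on a linear scale, for an Affymetrix zebrafish array hybridised with total RNA. How probes were summarised into these values is not stated by any source used here. After trimming 2% at each end, the mean of each array was 150.04 units, so the arrays had been scaled before deposit, and the values were used without further scaling. The number of arrays, 3 in each group, limits the precision.

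Arrays were grouped by their titles. The 115 AFFX controls were left out of the tests, and log2(intensity + 16) of the 15502 other probe sets was fitted with limma 3.58.1 in R 4.3.3 (lmFit, eBayes, Benjamini-Hochberg over all probe sets, no filter on low values). The pseudocount of 16 makes fold changes of dim genes too small. Of the probe sets 10795 had 1 gene symbol, 135 several and 4572 none, and a gene in a list was read by the brightest of its probe sets. Symbols are those of the platform annotation, of which 1 was updated through its gene identifier, and RefSeq sequences were not used.

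A probe set was taken as above background when it exceeded the highest of 17 unused tag controls of the same array. A lower bound of a fold is the group mean of the measured side over the mean of the higher of that floor and the dim value, on the log2 scale.

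Genes named in the text were supt5h, the 12 with the largest bounds in each direction among probe sets above background in 1 group alone, up to 4 called members of each list and direction with the smallest p, the 10 steadiest bright genes, and further list members needed to read a count. The same rule also took the 15 largest rises and falls, which are mostly left out here. The members, the 87 lists and the rule were chosen with earlier results of these data known, and 79 matches of name patterns that did not belong to 22 lists were dropped once the matched names had been seen. The fit was tested on simulated data. The alternatives were pseudocounts of 1 and 64, quantile normalization, median centring, 2 filters on dim probe sets, an intensity trend with a robust prior, the replicate block, other floors and each array left out in turn.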

Additional observations from a re-analysis of the deposited data

How the results depend on the processing

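No named gene that was called changed sign under the alternatives run on it, while genes near 0 did, such as znf503 and abcf2a. The filters on dim probe sets removed some named results. The difference of supt5h, Foggy36 minus WT36, was called in each and ran from -1.30 (pseudocount 64) to -2.21 (pseudocount 1) on the log2 scale. The count of 1702 calls fell to 594 with pseudocount 1 (154 higher, 440 lower, 25.9% of them higher) and was 2228 with pseudocount 64 (47.1% higher), 1849 with median centring, 1716 with quantile normalization, 2220 with an intensity trend and robust prior, and 2113 and 2215 with 2 filters on dim probe sets. With 1 array left out it ran from 841 to 1186, and those fits also had fewer arrays. For pseudocount 1 the cause was not tested. The 133 probe sets above the tag controls in 1 group alone numbered 152 to 440 with 1 array left out and 189 with 1 floor for all arrays. Of 401 named results besides supt5h, the 10 uncalled steady genes included, pseudocount 1 lost 213 calls, median centring 18, quantile normalization 13, and leaving out 1 array 99 (Foggy36 6) to 160 (WT36 4).

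With the replicate block 1888 were called (672 higher, 1216 lower), of which 1559 were shared, and 18 named results lost their call. The deviations of same-numbered arrays correlated at 0.033, 0.184 and 0.254 for numbers 4, 5 and 6. For numbers 5 and 6 the same-numbered arrays correlated best with each other, but WT36 4 correlated best with Foggy36 5 (0.108). Foggy36 4 in turn correlated best with WT36 4, by a small margin (0.033 against 0.0276 with WT36 5). Pairs of other numbers went down to -0.231. Not every same-numbered pair passed 0.1, a cut-off with no outside basis, and the numbers were not treated as pairs in the main fit. A shared clutch or batch was not tested. Dim genes are limited by the tag controls: 2596 probe sets were above them in no array.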
